A study of Mus musculus with 2 samples.

Results

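Interleukin 17 (IL-17)-type γδ T cells were defined here as retained cells selected on 4 sums of counts: at least 1 count of Cd3d, Cd3e or Cd3g, at least 1 of the scavenger receptor genes Cd163l1 or 5830411N06Rik, at least 1 of the T cell receptor constant genes Trdc or Trgc1, and at most 2 of the myeloid gene Lyz2. In all, 1447 of 18965 retained cells were members, 1341 of 11019 after imiquimod and 106 of 7946 after Shi-Bi-Man plus imiquimod. Both libraries were made from dorsal skin of C57BL/6 mice aged 7 weeks by sequencing of the 3′ ends of transcripts in single cells. Both groups were treated with imiquimod, which activates Toll-like receptor signalling and induces psoriasis-like lesions in mouse skin, and 1 group was also given Shi-Bi-Man, the preparation under study. The latter group is called the combination below. No group without imiquimod was analysed here, and the number of mice behind a library was not given in the sources used here. Each group held 1 library, so no difference between the libraries has a replicate check, no test was possible, and treatment cannot be told apart from the library.

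γδ T cells that make IL-17 leave the thymus already committed to that cytokine, settle in the dermis and respond to IL-23 and IL-1 without needing a new antigen response. Their lineage rests in part on the transcription factors Maf and Sox13 and on the kinase Blk. In imiquimod-treated mouse skin they are a known early source of IL-17A and IL-17F, and also of IL-22, which act on keratinocytes and draw in neutrophils. The rule genes Cd163l1 and 5830411N06Rik encode the scavenger receptors known as Scart1 and Scart2, which mark different γδ T17 lineages. They are near neighbours on chromosome 7 of GRCm38, Cd163l1 (ENSMUSG00000025461) from 140218267 to 140231145 and 5830411N06Rik (ENSMUSG00000054672) from 140247284 to 140300736. Because they are related in sequence, reads shared between them could have been split by the counting.

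The members' signature cytokines are encoded by Il17a (ENSMUSG00000025929) and Il17f (ENSMUSG00000041872), on chromosome 1 at 20730905 to 20734496 and 20777146 to 20790617, and by Il22 (ENSMUSG00000074695) on chromosome 10 at 118204942 to 118210047. Their promoters, each running from 250 bases before the RefSeq gene start to 50 bases after it, are shown because Rora, measured below, encodes a nuclear receptor that binds the letters AGGTCA. Capitals mark AGGTCA and the TATA box letters TATAAA, searched on both strands, with TGACCT and TTTATA as their forms on the other strand.
Il17a, chr1:20730655-20730954, plus strand: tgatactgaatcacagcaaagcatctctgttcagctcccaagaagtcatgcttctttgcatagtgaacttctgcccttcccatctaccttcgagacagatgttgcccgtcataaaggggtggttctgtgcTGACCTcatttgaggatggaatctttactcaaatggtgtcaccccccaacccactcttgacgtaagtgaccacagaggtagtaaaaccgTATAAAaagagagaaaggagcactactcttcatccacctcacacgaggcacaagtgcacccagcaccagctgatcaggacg
Il17f, chr1:20784221-20784520, minus strand: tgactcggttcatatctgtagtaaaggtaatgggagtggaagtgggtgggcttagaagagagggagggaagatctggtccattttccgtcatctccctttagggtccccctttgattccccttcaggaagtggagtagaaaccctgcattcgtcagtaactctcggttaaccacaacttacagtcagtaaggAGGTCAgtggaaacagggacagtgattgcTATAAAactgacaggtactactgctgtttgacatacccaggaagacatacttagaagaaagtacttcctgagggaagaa
Il22, chr10:118204714-118205013, plus strand: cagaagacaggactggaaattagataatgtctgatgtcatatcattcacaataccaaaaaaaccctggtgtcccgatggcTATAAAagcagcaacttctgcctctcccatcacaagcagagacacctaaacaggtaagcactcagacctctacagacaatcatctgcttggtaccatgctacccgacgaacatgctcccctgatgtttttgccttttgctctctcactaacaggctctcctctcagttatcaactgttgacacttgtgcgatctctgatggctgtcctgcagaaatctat
The sequences are RefSeq's for GRCm38.p6 and are written 5′ to 3′ along the gene. AGGTCA lies at bases 131 to 136 of the Il17a window, on the other strand, and at bases 193 to 198 of the Il17f window. TATAAA lies at bases 220 to 225, 222 to 227 and 81 to 86 of the Il17a, Il17f and Il22 windows. AGGTCA on either strand was in 16.3% of all 32851 promoters of this length, TATAAA in 13.6% and both in 2.42%. A match of letters is a description and does not show that a factor bound there.

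Members made up 12.2% of retained cells with imiquimod (95% Clopper-Pearson interval 11.6 to 12.8) and 1.33% with the combination (1.09 to 1.61), a 9.12-fold lower share. The other Cd3-positive cells, which met the same limit on Lyz2, made up 12.6% and 5.56%, a 2.27-fold lower share. Members were therefore 49.1% of 2730 Cd3-positive cells with imiquimod and 19.3% of 548 with the combination. Among Cd3-positive cells with a count of Trdc or Trgc1 they were 71.7% of 1870 and 37.1% of 286. All intervals in the text are 95% intervals that cover counting error only, so they leave out the variation between mice and between dissociations. Those of summed counts treat each count as independent, so they also leave out variation between the cells of a library. A lower share of members and a higher number of other cells in the suspension cannot be told apart in these shares.

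The members held 2163129 counts with imiquimod and 156652 with the combination, with medians of 1185 counts (504 to 20026) and 1034 counts (512 to 9699) per cell. Between the libraries 49 barcodes were shared, and 8 members of the imiquimod library and 0 of the other carried one of them. Genes of other skin cells were present in the members and differed between the libraries. In the imiquimod library 33.2% of members, and in the combination library 69.8%, held at least 3 counts in 1 or more of 5 sets of genes, those of keratinocytes, fibroblasts, macrophages, endothelium and B cells. The summed fibroblast markers stood at 3487 and 16623 CPM (counts scaled to a total of 1000000 over the members), all 8 detected in both libraries. The summed keratinocyte markers stood at 5723 and 10782 CPM, all 10 detected in both. In the other direction, Langerhans and dendritic cell markers stood at 3801 and 677 CPM, with Cd207, Itgax and Flt3 of the 8 at 0 with the combination. Neutrophil markers stood at 503 and 19.2 CPM, with Ly6g at 0 in both libraries and Csf3r, Cxcr2 and Retnlg also at 0 in the second. Haemoglobin genes had 9759 counts in 633 of 1341 members with imiquimod and 3 counts in 3 of 106 with the combination, and control fibroblasts held a count in 47.5% and 3.93%. The part of these genes in the ratios between the libraries was not tested beyond the selections given below. The ratios of the main genes are therefore also given in the 896 and 32 members with fewer than 3 counts in each of these sets.

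The label was checked against genes the rule did not use. Il17a was counted in 82.8% and 48.1% of members and in 6.40% and 0.715% of control fibroblasts (cells with at least 10 counts of Col1a1, Col1a2 and Dcn together and 0 of the Cd3 genes and Ptprc), whose median depths were 2023.5 and 2250 counts. Blk stood at 484 and 332 CPM in members against 90.9 and 32.5 CPM in other Cd3-positive cells. It was 1 of 4 among 10 lineage regulators compared that were at least 2-fold higher in members in both libraries. Sox4 and Ahr, too low to be compared, were lower in members. Trac, the constant chain of αβ T cells, stood at 87.8 and 115 CPM in members and at 199 and 174 CPM in other Cd3-positive cells. In Cd3-positive cells with Trdc or Trgc1 but 0 scavenger receptor counts it stood at 101 and 97.97 CPM. Cd4, Cd8a, Cd8b1 and Foxp3 were at 0 in the 106 members with the combination. In the members with imiquimod they had 2, 2, 6 and 4 counts. The 8 markers of dendritic epidermal T cells, the resident γδ cells of mouse epidermis, summed to 368 and 255 CPM in members and to 1038 and 1409 CPM in other Cd3-positive cells. The 7 αβ T cell markers were not lower in members, at 1080 and 1041 CPM against 850 and 627 CPM, and the β constant genes Trbc1 and Trbc2 held most of that sum in members (Trbc1 at 406 and 357 CPM, Trbc2 at 580 and 568 CPM). In the combination library 51 of 106 members held a count of Il17a, so the label is less well borne out by the cytokine there than in the imiquimod library.

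Members just inside and just outside the rule showed where it cuts. With imiquimod, members with 1 scavenger receptor count held Il17a at 5067 CPM and those with 3 or more at 6278 CPM, while cells with Trdc or Trgc1 but 0 such counts, left outside, held 3110 CPM in 529 cells. With the combination the same values were 1937 CPM, 3623 CPM and 555 CPM, the last in 180 cells. In these cells outside the rule, Fcer1g, a signalling chain of epidermal T cells, stood at 388 and 1065 CPM, and Xcl1, a chemokine of those cells, at 155 and 1490 CPM. A further 17 and 1 cells were kept out by the limit on Lyz2 alone. Lack of a Trdc or Trgc1 count alone kept out 95 and 20 cells, of which 44.2% and 50% held Il17a. Lack of a Cd3 count alone kept out 113 and 14 cells, of which 67.3% and 42.9% held it.

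The cytokines were compared first, since they are what these cells deliver to the skin. Il17a, which drives keratinocyte inflammation, stood at 6071 CPM with imiquimod (5968 to 6176, from 13133 counts) and 2745 CPM with the combination (2492 to 3017, from 430 counts). The log2 ratio, written here as combination over imiquimod with 0.5 added to each count, was -1.14 (-1.29 to -1.01). Il17f, its close relative, stood at 3421 and 2234 CPM, with a ratio of -0.61 (-0.77 to -0.46) on that scale. Il22, which acts on epidermal growth and repair, stood at 362 CPM (784 counts) and 51.1 CPM (8 counts), a log2 ratio of -2.74 (-4.04 to -1.84). All 3 cytokines were thus lower in the members of the combination library, and the CPM intervals of each did not overlap. These intervals leave out variation between cells as well as between libraries, and they do not compare the treatments.

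In the members with few such counts, Il17a stood at 7565 and 5004 CPM (log2 ratio -0.59, -0.82 to -0.38), and Il22 at -1.82 (-3.87 to -0.63), from 543 and 4 counts. Il17f changed direction there, at 4213 and 5181 CPM and a log2 ratio of 0.30 (0.07 to 0.52). The 32 cells of the second library behind these values held 33972 counts.

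Other secreted factors of the list were also lower or near equal. Areg, an epidermal growth factor receptor ligand, stood at 619 and 268 CPM (-1.19), and Ltb, a lymphotoxin subunit, at 907 and 536 CPM (-0.75). In members with few counts of other cells they stood at -0.28 (-1.08 to 0.36) and -0.33 (-0.94 to 0.18), and the interval of each covered 0. Tnf stood at 89.7 and 89.4 CPM (0.04, -0.90 to 0.78) and Tgfb1 at 261 and 223 CPM (-0.21), and Tgfb1 turned to 0.49 (-0.44 to 1.21) in members with few counts of other cells, from 351 and 14 counts. Of 7 measured members of the list of IL-17-type cytokines, 0 lay above the 1.5-fold limit, 5 below it and 2 between, with a median log2 ratio of -0.75. Over all 3442 measured genes, 19.0% were past that limit upwards and 12.2% downwards, with a median of 0.06. Genes were measured by their mean CPM over the 2 libraries, in the lists and over all genes alike. A gene could thus pass through the library where it was high. In the members with few counts of other cells the list gave 2 lower, Il17a and Il22, and 0 higher, and a median of -0.33, against 22.6% lower and 28.9% higher among all measured genes.

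**Figure D1:**
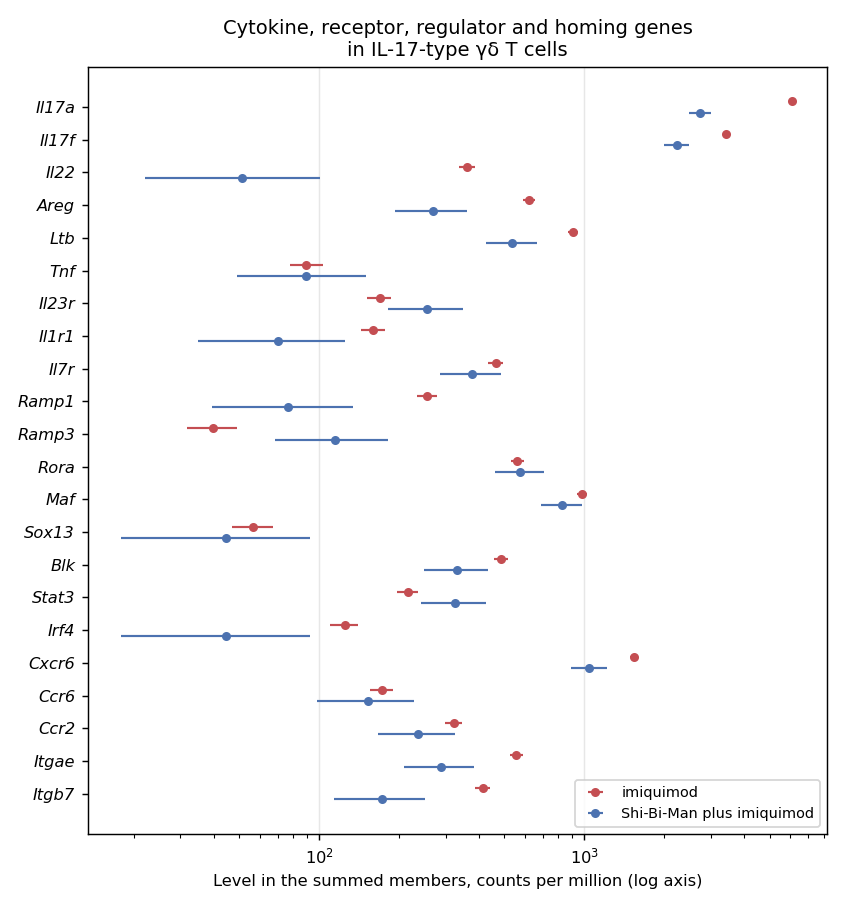
Levels of cytokine, receptor, regulator and homing genes in the summed members, in CPM on a log axis, with exact 95% Poisson intervals, for imiquimod (red) and the combination (blue). Il17a sits at 6071 and 2745 CPM and Il22 at 362 and 51.1 CPM, while the points of Rora and Tnf nearly coincide.

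Fewer members held Il17a in the combination library. After each cell was thinned to 500 counts, with no member left out, Il17a was counted in 946 of 1341 members (70.5%, 68.0 to 73.0) with imiquimod and 44 of 106 (41.5%, 32.0 to 51.5) with the combination. Control fibroblasts thinned alike gave 1.42% and 0.238%. Il17f was counted in 670 of 1341 members and in 29 of 106 (27.4%), and neither Il17a nor Il17f in 21.3% and 53.8%. At the upper end, 6 or more Il17a counts per 500 were found in 21.8% and 7.55% of members.

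The levels among only those members that held the gene were as follows. In cells with an Il17a count, without thinning, Il17a stood at 7183 CPM (1110 cells) and 5960 CPM (51 cells). In cells with an Il17f count, Il17f stood at 4849 CPM (881 cells) and 7073 CPM (35 cells). Few cells carried much of it in the smaller library: 11 members held 60.7% of the Il17a counts and 71.1% of the Il17f counts there, and 134 members of the imiquimod library held 39.2% and 50.9%. Restricted to members with few counts of other cells, the thinned Il17a share was 73.9% of 896 and 40.6% of 32 (23.7 to 59.4), and the Il17f share 52.2% and 34.4% (18.6 to 53.2).

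Il17a was lower with the combination at each depth. In members of 500 to under 800 counts it stood at 6827 and 3534 CPM, and from 800 to under 1200 at 7499 and 2629 CPM. From 1200 to under 2000 counts it stood at 7886 and 4655 CPM, and in the deepest members at 4098 and 1805 CPM. Il17f did not keep 1 size of difference: it stood at 3074 and 1553 CPM in the shallowest of these members and at 4607 and 3961 CPM from 1200 to under 2000 counts.

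**Figure D2:**
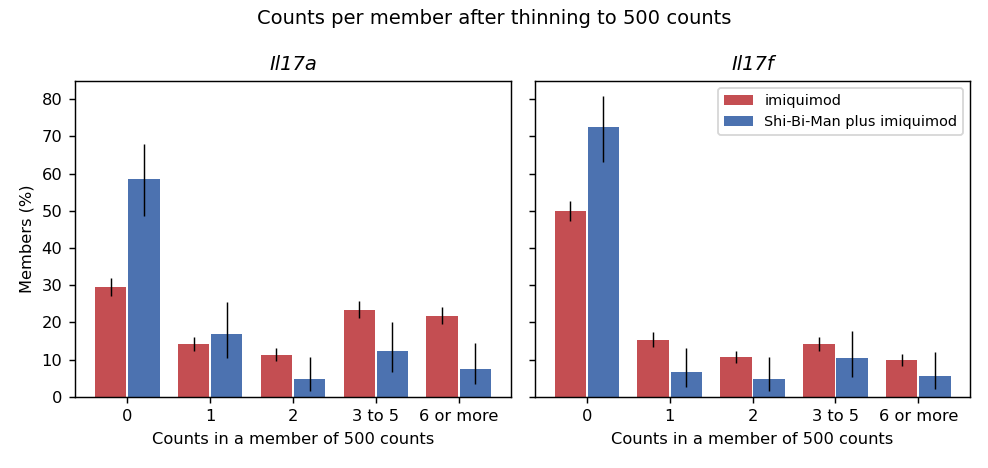
Share of members (%) with 0, 1, 2, 3 to 5 or 6 or more counts of Il17a (left) and Il17f (right) after thinning each member to 500 counts, with exact 95% binomial intervals, for 1341 members with imiquimod (red) and 106 with the combination (blue). The bar at 0 is 29.5% and 58.5% for Il17a, and that at 6 or more counts 21.8% and 7.55%.

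The receptors through which these cells are driven did not share 1 direction. Il23r (ENSMUSG00000049093, chromosome 6 from 67422932 to 67491855), the receptor subunit specific for IL-23, stood at 169 CPM (366 counts) and 255 CPM (40 counts), a log2 ratio of 0.61 (0.08 to 1.07). After thinning it was counted in 8.95% and 20.8% of members, against 0.0547% and 0.119% of control fibroblasts. Il1r1, the receptor for IL-1, stood at 160 and 70.2 CPM (-1.13, -2.20 to -0.33), and control fibroblasts held 145 and 72.8 CPM of it. Il7r, the receptor for the survival cytokine IL-7, stood at 464 and 377 CPM (-0.29, -0.70 to 0.08), and this depth did not show a difference. Il7r in members with few counts of other cells stood at -0.93 (-2.14 to -0.07), from 617 and 9 counts.

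Ramp1 and Ramp3, partners of the calcitonin receptor-like receptor for the neuropeptide CGRP and for adrenomedullin, differed in opposite directions. Ramp1 stood at 256 CPM (553 counts) and 76.6 CPM (12 counts), a log2 ratio of -1.68 (-2.70 to -0.92). Ramp3 stood at 39.8 CPM (86 counts) and 115 CPM (18 counts), a log2 ratio of 1.56 (0.71 to 2.28). Both kept these directions in members with few counts of other cells, at -2.70 with 1 count of Ramp1 in the second library and 2.08 with 6 counts of Ramp3. Of 15 measured receptors and inputs, 3 were at least 1.5-fold higher (Ramp3, Il4ra and Il23r), 2 lower (Ramp1 and Il1r1) and 10 between, with a median of 0.12. These counts lie near the shares of all measured genes, 19.0% higher and 12.2% lower. Ramp3 was measured only through the combination library, where it was high.

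Among the regulators of the lineage, Rora stood at 560 and 575 CPM (0.04, -0.29 to 0.35) and Maf at 980 and 823 CPM (-0.25, -0.52 to 0.01). Sox13 stood at 56.4 and 44.7 CPM (-0.24) and Blk at 484 and 332 CPM (-0.53, -0.97 to -0.14). Irf4, which supports IL-17 production downstream of antigen receptor and cytokine signals, stood at 125 and 44.7 CPM (-1.39, -2.81 to -0.42). Stat3, through which IL-23 signals, stood at 216 and 326 CPM (0.61, 0.15 to 1.01). Of 16 measured regulators, 1 was at least 1.5-fold higher, 2 lower (Irf4 and Batf) and 13 between, with a median of -0.24. Over all measured genes, 19.0% were higher and 12.2% lower. Irf4 and Batf were measured only through the imiquimod library, where they were high. Of the same 16, 9 were lower and 1 higher in members with few counts of other cells, against 22.6% and 28.9% of all measured genes. Few counts stand behind that tally: in the second library Hif1a and Ikzf2 had 0 counts there, and Irf4, Batf and Zbtb16 had 1 each. Blk stood at -0.63 (-1.60 to 0.10) in those members, and Sox13 turned to 0.50 (-2.89 to 2.10) with 2 counts.

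Genes of homing and residence did not share 1 direction. Cxcr6 (ENSMUSG00000048521, chromosome 9 from 123806475 to 123811760), the receptor of CXCL16, stood at 1535 and 1047 CPM (-0.55, -0.79 to -0.33) and after thinning was counted in 52.9% and 41.5% of members. Its ratio in members with few counts of other cells was 0.06 (-0.33 to 0.41). Itgae and Itgb7, the 2 chains of the integrin that binds E-cadherin on epithelium, stood at 554 and 287 CPM (-0.93) and at 414 and 172 CPM (-1.24). Both kept this direction in members with few counts of other cells, at -0.90 (-1.98 to -0.12) and -1.31 (-2.73 to -0.36). Cd69, an activation and residence marker, stood at 950 and 549 CPM (-0.78), and Ccr6 and Ccr2, chemokine receptors of γδ T17 cells, at -0.14 (-0.83 to 0.43) and -0.43 (-0.97 to 0.03). Of 17 measured genes of this list, 2 were at least 1.5-fold higher (Itgav and Ly6a), 5 lower (Itgb7, Itgae, Itgb2, Cd69 and Itgal) and 10 between, beside 19.0% higher and 12.2% lower among all measured genes. The median was 0.02 in members with few counts of other cells, where 6 were lower and 4 higher, beside 22.6% and 28.9% of all measured genes.

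Proliferation genes were lower as a list. Of 21 measured genes, 15 were past the 1.5-fold limit downwards, 0 upwards and 6 between, with a median of -1.04. Over all measured genes, 12.2% were past it downwards and 19.0% upwards. Genes such as Prc1 (97.1 and 6.38 CPM) were measured only through the imiquimod library, so the tally depends in part on the filter. Mki67, a marker of cycling cells, stood at 340 and 147 CPM (-1.18, -1.88 to -0.61). Stmn1 stood at 303 and 121 CPM (-1.29) and Rrm2, a subunit of ribonucleotide reductase, at 168 and 51.1 CPM (-1.63, -2.94 to -0.73). Pcna, the sliding clamp of replication, stood at 201 and 230 CPM (0.21, -0.34 to 0.69), and Mcm2 at 0.22. In members with few counts of other cells, the list gave 15 lower and 1 higher with a median of -0.90, but Mki67 there stood at -0.24 (-1.38 to 0.58). In those members 22.6% of all measured genes were lower and 28.9% higher. Few counts stand behind the tally of the list. In the second library Prc1 and Kif11 had 0 counts there, and Birc5, Nusap1, Mcm6, Mcm7 and Rrm1 had 1 each.

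Signalling and activation genes were mostly between the limits. The lists of this paragraph stand beside 19.0% higher and 12.2% lower among all measured genes. Of 14 measured genes of the T cell receptor complex and its signalling, 3 were lower (Zap70, Cd3d and Cd247), 1 higher (Cd2) and 10 between; Cd3d was part of the rule. Of 20 immediate early and feedback genes, 17 were between, with Junb at 6989 and 5126 CPM (-0.45), Nr4a1 at 2108 and 1851 CPM (-0.18) and Jun at 884 and 1417 CPM (0.68). Of 7 measured checkpoint and costimulatory genes, Havcr2, Tnfrsf9 and Icos were lower, Icos at 932 and 613 CPM (-0.60), and Pdcd1, which encodes PD-1, stood at 279 and 217 CPM (-0.34), turning to 0.20 (-0.78 to 0.94) in members with few counts of other cells. Of 9 survival genes 8 were between, and of 21 nuclear-encoded genes of oxidative phosphorylation 19 were between with a median of -0.02. Of 10 glycolysis genes 7 were between, and Hk2, a hexokinase, stood at 193 and 364 CPM (0.92, 0.49 to 1.31). Of 6 measured cytotoxic and chemokine genes, Nkg7, Xcl1 and Lamp1 were higher, beside 19.0% of all measured genes. Nkg7, a granule protein gene, stood at 45.8 and 128 CPM, from 99 and 20 counts. Nkg7 and Xcl1 (32.4 and 83.0 CPM) were measured only through the combination library, where they were high. Havcr2 (77.7 and 31.9 CPM) was measured only through the imiquimod library. These tallies therefore depend in part on the filter. In the combination library 19 of the 20 Nkg7 counts and all 13 Xcl1 counts lay in the 55 members with 0 counts of Il17a. With imiquimod 33 of 99 Nkg7 counts and 18 of 70 Xcl1 counts lay in the 231 such members. In members with few counts of other cells, 14 Nkg7 counts came from 4 cells and 11 Xcl1 counts from 2 cells of that library.

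In the lipid list, single cells held most counts of the leading genes. Of 11 measured genes of lipid uptake and fatty acid handling, 6 were higher and 1 lower, beside 19.0% and 12.2% of all measured genes. Lpl (43.9 and 89.4 CPM) was measured only through the combination library, and Fabp4 (119 and 25.5 CPM) only through the imiquimod library. Scd1, a fatty acid desaturase, stood at 540 and 1628 CPM (1.59) and Plin2, a lipid droplet coat protein, at 173 and 479 CPM (1.47). In the combination library 1 member held 88.2% of the Scd1 counts and 1 member 65.3% of the Plin2 counts. In members with few counts of other cells the list gave 4 higher and 5 lower, beside 28.9% and 22.6% of all measured genes. Scd1 stood at -0.06 there and Plin2 at -1.62.

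Across all measured genes, 654 of 3442 lay above the 1.5-fold limit and 421 below it. TMM factors of edgeR lowered every log2 ratio of the members by 0.19, which turned this split to 455 higher and 683 lower, and DESeq2 size factors lowered each by 0.17, giving 484 and 649. Under TMM the ratio of Il23r was 0.42, short of 1.5-fold, and those of Il17a and Il17f were -1.33 and -0.80. Rora, slightly above 0 by totals, was at -0.14 under TMM. The 8 highest were Dapl1, Krt77, Igfbp2, Serpinb2, Cldn4, Mmp3, Col1a1 and Col1a2, which keratinocytes and fibroblasts express, from 2.60 for Col1a2 to 3.71 for Dapl1. Col1a1 stood at 453 and 3351 CPM in members and at 9610 and 15439 CPM in control fibroblasts, and 1 member held 43.4% of its counts in the second library. The 8 lowest were S100a8, Il22, H2-Eb1, Cd74, H2-Aa, H2-Ab1, Cst6 and Trgc2. S100a8, a neutrophil and stressed-keratinocyte gene, had 712 and 2 counts in members and stood at 1290 and 6.29 CPM in other Cd3-positive cells.

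A second set of extremes, chosen after the values were seen, was taken among 985 genes at least 1.5-fold above the mean level of all retained cells. Of these, 159 lay above the 1.5-fold limit and 175 below it, with a median of -0.04. Both levels were means of the 2 libraries, so a gene could pass through the library where it was high. Ilrun (51.3 and 185 CPM, against 67.8 CPM in all retained cells) passed through the combination library alone. Tln1 (against 107 CPM in all retained cells) passed through the imiquimod library alone. The tally and the extremes therefore depend in part on this filter. The lowest were Il22, Trgc2, Ramp1, Rrm2, Cd48, Tln1, Trgc4, Slc15a3, Rrad and Stmn1. Cd48, a ligand of the signalling lymphocyte receptor CD244, stood at 195 and 63.8 CPM (-1.54), and Tln1, which links integrins to actin, at 313 and 109 CPM (-1.49). The highest were Ilrun, Tg, Coro2a, Slc16a10, Stac, Cbarp, Mpnd, Per1, Rad51b and Ranbp9, none with more than 36 counts in the second library. Per1, a circadian clock gene, stood at 81.8 and 179 CPM (1.15, 0.50 to 1.71) and was counted in 23 members there, 9 of them with few counts of other cells. In the second library 1 member held 51.7% of the Ilrun counts, 43.5% of those of Ranbp9, 36.7% of Slc16a10 and 30.0% of Coro2a. Stac and Ranbp9 stood at 0.01 each (2 counts) and Slc16a10 at 0.28 (4 counts) in members with few counts of other cells, while Ilrun, Tg, Coro2a, Cbarp, Mpnd, Per1 and Rad51b stayed past 1.5-fold. Of these, the intervals covered 0 for Cbarp (-1.22 to 2.09, 4 counts) and Rad51b (-0.92 to 1.71, 6 counts). The 22 Ilrun counts there came from 4 cells.

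**Figure D3:**
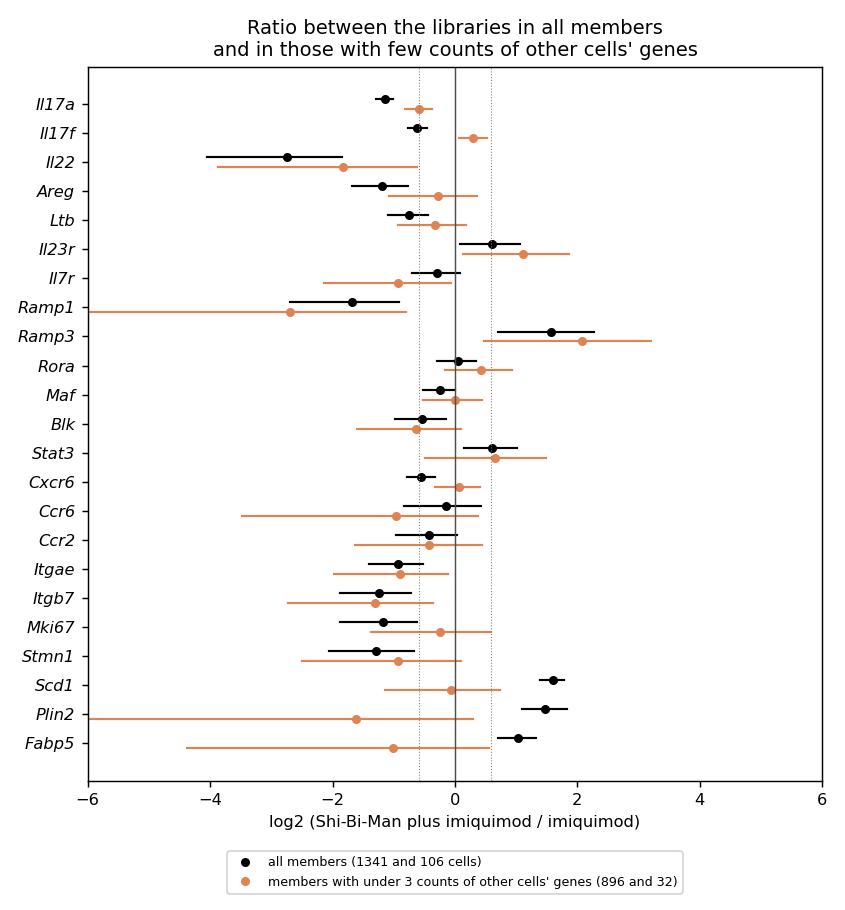
Log2 ratio of the combination over imiquimod with exact 95% intervals for named genes in all members (black) and in members with fewer than 3 counts in each set of other cells' genes (orange); dotted lines mark 1.5-fold, and intervals are drawn to -6 at most. Il17a is left of 0 in both sets (-1.14 and -0.59), Il17f and Cxcr6 cross to the right (0.30 and 0.06), and Scd1 and Plin2 leave the right side.

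The members were then split by which scavenger receptor gene they held, a split on rule genes, so those genes are not described as differing. With imiquimod 801 members held only Cd163l1, 440 only 5830411N06Rik and 100 both, and with the combination 59, 39 and 8. After thinning to 500 counts, Cd163l1 alone was found in 43.7% and 39.6% of members and 5830411N06Rik alone in 24.0% and 25.5%, and the intervals overlap (41.0 to 46.4 and 30.3 to 49.6 for the first).

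The subsets differed in their δ chain. Trdv4 (ENSMUSG00000076867, chromosome 14 from 54074905 to 54075515), the variable segment known as Vδ1 that fetal-type Vγ6 cells and dendritic epidermal T cells use, stood at 961 and 589 CPM in members with Cd163l1 only, from 1121 and 49 counts. In members with 5830411N06Rik only it stood at 16.0 CPM from 13 counts with imiquimod and had 0 counts with the combination. In the second library it was at least 11.1-fold lower there, taking 3 counts in that subset as the floor. Trdv4 was also counted outside the members: cells outside the rule with Trdc or Trgc1, 0 scavenger receptor counts and a count of Fcer1g held it at 266 and 735 CPM, in 148 and 106 cells. Trgv6, a γ variable segment, had 88 and 8 counts in the 2 subsets with imiquimod (75.4 and 9.82 CPM), and 2 and 0 in the other library.

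Further genes were past 1.5-fold between the subsets in both libraries. Of 1596 genes compared, 30 (1.88%) were at least 1.5-fold higher in members with Cd163l1 only in both libraries and 15 (0.940%) at least 1.5-fold lower. Areg stood at 865 and 335 CPM in the 2 subsets with imiquimod and at 385 and 141 CPM with the combination. Pdcd1 stood at 363 and 173 CPM and at 313 and 124 CPM. Il22 stood at 567 and 123 CPM with imiquimod, and had 8 and 0 counts in the other library. Zbtb16, the factor PLZF of innate-like T cells, stood at 110 and 30.7 CPM with imiquimod and had 11 and 0 counts in the other library. It was too low to be among the genes compared. Hopx and Acpp, which were compared, were also past the limit on this side. On the other side were Cxcl12, Cstdc5, Stfa1, Krt16, Nans and Rrad, with Cstdc5, a stefin-family protease inhibitor gene, at 853 and 1688 CPM with imiquimod and 361 and 759 CPM with the combination. Several of these ratios rest on few counts with the combination, where the intervals covered 0 for Hopx (14 and 3 counts, -0.17 to 4.11), Acpp (16 and 4 counts, -0.19 to 3.49) and Stfa1 (6 and 8 counts, -2.77 to 0.75). They also covered 0 for Krt16 (2 and 6 counts), Nans (4 and 9 counts) and Rrad (4 and 5 counts). Krt16 is a keratin gene, and the keratinocyte marker Krt14 also differed between the subsets. Krt14 stood at 783 and 1080 CPM with imiquimod and, in the other order, at 1107 and 194 CPM with the combination. The part of other cells' genes in these subset ratios was not tested.

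Ccr6 changed its order between the libraries and Ccr2 did not. With imiquimod Ccr6 stood at 107 CPM with Cd163l1 only and 261 CPM with 5830411N06Rik only, and with the combination at 205 CPM (17 counts) and 106 CPM (6 counts). Ccr2 stood at 439 and 168 CPM with imiquimod and at 277 and 194 CPM (23 and 11 counts) in the other library. With the combination the interval of the ratio between the subsets covered 0 for both genes (-0.46 to 2.58 for Ccr6 and -0.58 to 1.70 for Ccr2).

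The difference between the libraries in IL-17 genes was unequal between the subsets. In members with Cd163l1 only, Il17a stood at 6199 CPM with imiquimod (7231 counts) and 1299 CPM with the combination (108 counts), a log2 ratio of -2.25 (-2.54 to -1.98). In members with 5830411N06Rik only it stood at 5894 and 4994 CPM (4802 and 283 counts), for which the ratio was -0.24 (-0.42 to -0.07). Il17f stood at 2717 and 421 CPM in the former (-2.67, -3.21 to -2.21) and at 4113 and 4836 CPM in the latter (0.24, 0.05 to 0.41). The intervals of the 2 subsets did not overlap for either gene, but they cover counting error only and the difference between the ratios was not tested, since each group held 1 library. Without the cell with most Il17f counts in each library, the Il17f ratio was -3.37 in the former, outside its interval, and 0.06 in the latter.

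The share of cells holding the cytokine gave a smaller contrast. After thinning, Il17a was counted in 71.4% of members with Cd163l1 only with imiquimod and in 19 of 59 (32.2%, 20.6 to 45.6) with the combination. With 5830411N06Rik only the shares were 70.2% and 21 of 39 (53.8%, 37.2 to 69.9), and the intervals of the 2 subsets in the second library overlap. Il17f was counted in 46.2% and 11.9% (4.91 to 22.9) of the former and in 54.8% and 48.7% (32.4 to 65.2) of the latter.

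The same ratios were taken in other selections of cells, chosen after the values were seen. With at least 2 counts of the gene that defines the subset, the Il17a ratio was -1.98 (32 cells in the second library) and -0.13 (23 cells). Without the cell with most Il17a counts in each library it was -2.42 and -0.39. Without members holding a count of Fcer1g, Xcl1, Nkg7 or Gzmc, genes of epidermal and cytotoxic T cells, it was -1.95 and -0.30. In members with few counts of other cells it was -1.87 and 0.03, from 18 and 12 cells in the second library. Trdv4-positive members with Cd163l1 only held Il17a at 6408 CPM (477 cells) and 1439 CPM (28 cells), a ratio of -2.14 (-2.57 to -1.77). In the same Trdv4-positive cells Xcl1 stood at 23.2 and 314 CPM (17 and 12 counts), Nkg7 at 38.1 and 393 CPM (28 and 15 counts) and Fcer1g at 46.3 and 183 CPM (34 and 7 counts). The part of these genes of epidermal and cytotoxic T cells in the Il17a ratio of the Trdv4-positive cells was not tested.

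Il23r and Cxcr6 were compared in the same way. Il23r stood at 177 and 132 CPM with Cd163l1 only (-0.36, -1.44 to 0.45) and at 155 and 424 CPM with 5830411N06Rik only (1.48, 0.76 to 2.09, from 126 and 24 counts). Cxcr6 stood at 1870 and 1251 CPM (-0.57) and at 1075 and 847 CPM (-0.33), with overlapping intervals. Trgc1, a rule gene, is given as a description only, at 2224 and 758 CPM and at 712 and 600 CPM.

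**Figure D4:**
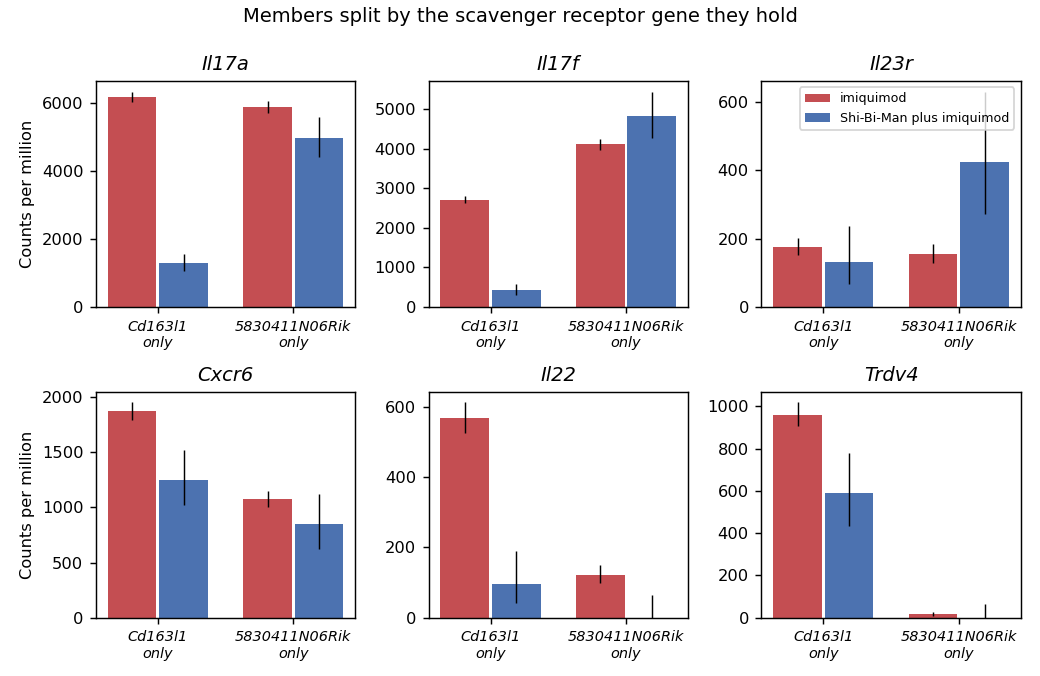
CPM of 6 genes in members holding only Cd163l1 (801 and 59 cells) or only 5830411N06Rik (440 and 39 cells), with imiquimod (red) and the combination (blue); bars start at 0 and lines are exact 95% Poisson intervals. Il17a and Il17f are low in the blue bars of the first subset (1299 and 421 CPM) and stand at 4994 and 4836 CPM in those of the second, while Trdv4 stands at 16.0 and 0 CPM in the second.

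Members were compared with the other Cd3-positive cells of the same library, as a description, because the rule that separates them is a rule on expression. Of 2080 genes compared, 172 (8.27%) were at least 2-fold higher in members in both libraries and 114 (5.48%) at least 2-fold lower. The 15 highest included Cryba4, Il17a, Il17f, Pik3ap1, Pdcd1, Blk, Stac, Cxcr6, Mmp25, Actn2, Il23r, Hlf, Gpr65 and Ltb4r1. Il17a stood at 6071 against 1072 CPM with imiquimod and 2745 against 317 CPM with the combination. Cryba4, a lens crystallin gene, stood at 106 against 14.0 CPM and at 102 against 10.5 CPM. Il23r stood at 169 against 37.9 CPM and at 255 against 11.5 CPM.

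The 10 genes lowest in members were Ccl5, Gzmc, Nkg7, Xcl1, Tnfrsf4, Trat1, Klk7, Lce3d, Rab25 and Elovl4. Ccl5, a chemokine of cytotoxic T cells, stood at 55.0 against 361 CPM with imiquimod and at 19.2 against 905 CPM with the combination. Gzmc, a granzyme, stood at 28.7 against 316 CPM and had 0 against 87 counts in the second library. Tnfrsf4, the costimulatory receptor OX40, stood at 13.4 against 141 CPM and 6.38 against 143 CPM, and in the αβ T cells among those others at 1005 and 1227 CPM. Elovl4, a fatty acid elongase, stood at 318 against 1318 CPM and 230 against 1690 CPM, and in the αβ T cells at 3132 and 1935 CPM. Keratinocyte markers summed to 18300 and 30364 CPM in the other Cd3-positive cells, and 9 of 10 were at least 2-fold lower in members in both libraries.

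By list, 5 of 6 IL-17-type cytokines, 6 of 13 receptors, 4 of 10 lineage regulators and 8 of 17 homing genes were at least 2-fold higher in members in both libraries, and 0 of each were lower. Of 9 cytotoxic granule and chemokine genes, 5 were lower and 2 higher, and of 19 oxidative phosphorylation genes 0 were past 2-fold in either direction. Compared with αβ T cells only (200 and 60 cells), 60 genes of 2140 were at least 2-fold higher in both libraries. Compared with other Cd3-positive cells that held a Trdc or Trgc1 count, 26 of 2029 were.

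The αβ T cells gave a different sign for Il17a in summed counts, from few counts. In the 200 and 60 Cd3-positive cells with a Trac count and 0 counts of the scavenger receptor genes and of Trdc, Trgc1, Trgc2, Trgc4 and Trgv5, Il17a stood at 309 CPM (94 counts) and 1075 CPM (85 counts), and was counted after thinning in 12 and in 8 cells (6.00%, 3.14 to 10.2, and 13.3%, 5.94 to 24.6). The intervals of these shares overlap. Trac was also counted in 10.8% and 8.89% of cells with Trdc or Trgc1 and 0 scavenger receptor counts. Whether γδ cells with missed counts were among the αβ T cells was not tested. The difference between the Il17a ratio of the αβ T cells and that of the members was not tested.

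**Figure D5:**
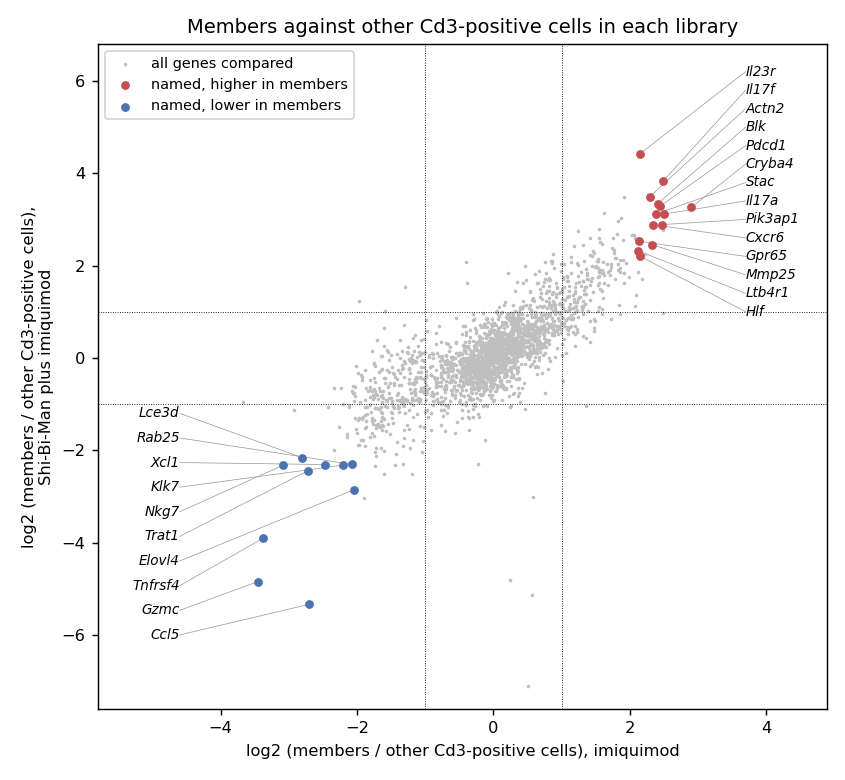
Log2 ratio of members over other Cd3-positive cells with imiquimod (horizontal) and with the combination (vertical), 1 point per gene for 2080 genes, with genes named among the highest (red) and lowest (blue) in members and dotted lines at 2-fold. Il17a lies at 2.50 and 3.12 and Gzmc at -3.45 and -4.84.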

How the data were processed

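The deposited values are whole-number counts per gene and cell barcode, 1 table per library, and the submitters' processing notes name the builds mm10 and GRCm38. The aligner, the counter and whether counts were collapsed to molecules are not given in the sources used here. Entries sharing a symbol were summed, from 55471 entries to 55353 symbols. The minimum was 200 genes per cell and the limit 20% mitochondrial counts, which left out 192 and 7 cells for genes and 105 and 101 for mitochondrial counts. No doublet caller was run.

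Counts were summed over members per library and scaled to CPM, with exact Poisson intervals. Log2 ratios had 0.5 added to each count and exact conditional binomial intervals, and shares had Clopper-Pearson intervals, all at 95%. A gene was measured with at least 20 counts and a mean CPM of at least 50. Cells were thinned to 500 counts for shares. With 1 library per group no test was possible. The statistics were tested on simulated data. The simulated sums were drawn as independent counts, as the intervals assume, so they did not cover variation between cells or between libraries.

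The members and gene lists were chosen with earlier results of these data known. Measured list members could be named, with the 8 highest and 8 lowest genes of at least 50 counts and a mean CPM of at least 100 (unnamed models and mitochondrial, ribosomal protein, haemoglobin and immunoglobulin genes left out). In the same way, 15 genes were named as higher and 10 as lower than in other Cd3-positive cells, and 6 each way between the scavenger receptor subsets. Python 3.11.15, numpy 2.4.6, scipy 1.17.1, pandas 2.3.3, matplotlib 3.10.9 and R 4.3.3 were used, with edgeR 4.0.16 and DESeq2 1.42.0 for scaling factors only. Alternatives covered the rule's thresholds, scaling, filters, thinning and the cells included. One gene that the naming rule selects is not reported here.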

Additional observations from a re-analysis of the deposited data

How the results depend on the processing

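Each value here is the log2 ratio of the combination over imiquimod unless a share or a count is named. Thinning every cell to 500 counts gave member shares of 6.01% and 0.654% of retained cells and 34.5% and 14.2% of Cd3-positive cells, for imiquimod and the combination. Asking for at least 2 scavenger receptor counts gave 9.08% and 0.793%, and 36.6% and 11.5%, with Il17a at -0.94, Fabp5 in members at -0.00581, Scd1 at -1.37 and Slc16a10 at -0.042. At least 2 counts of Trdc and Trgc1 gave 11.1% and 44.9% with imiquimod, with Il17a at -1.002, Fabp5 at -0.59, Scd1 at -1.48, Lpl at -0.075 and Fasn at -0.59. Lyz2 of 0 gave 10.8% of retained cells with imiquimod, Scd1 at -1.07 and Fasn in members at -0.00353, and at least 500 genes gave 53.3% of Cd3-positive cells.

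Without members holding 3 or more counts of another cell type, shares were 8.13% and 0.403% of retained and 32.8% and 5.84% of Cd3-positive cells, and 1228 genes were at least 1.5-fold higher, with the filter applied anew. There Il17a was -0.59, Il17f 0.30 (a changed direction), Il22 -1.82, Il23r 1.11 and Cxcr6 0.060. Among genes past 1.5-fold in all members, directions also changed for Itgal (0.024), Irf1 (-0.12), Psmb8 (0.015), Fabp5 (-1.01), Scd1 (-0.061), Lpl (-1.02), Plin2 (-1.62), Ndufb8 (-1.56), Krt5 (0.25) and Krt15 (-0.0081), and some genes within 1.5-fold also turned, among them Tgfb1 (0.49), Sox13 (0.50) and Pdcd1 (0.20). In the subset with Cd163l1 only, Il17a was -1.87 and Il17f -1.30, and with 5830411N06Rik only 0.028 and 0.48.

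TMM gave 683 lower genes, Il17a at -1.33 and Il17f at -0.80, and with 5830411N06Rik only -0.42 and 0.050. DESeq2 size factors gave 649, -1.31 and -0.78. A mean over cells gave Fabp5 at -0.049. The genes at least 1.5-fold higher in members with Shi-Bi-Man, and those lower, numbered 99 and 88 at a mean CPM of at least 200, 2338 and 2095 with no minimum, and 159 and 175 among genes 1.5-fold above all retained cells. Without members with Fcer1g, Xcl1, Nkg7 or Gzmc, Fabp5 was -0.53, Scd1 -1.43, Fasn -0.25, and Il17a with Cd163l1 only -1.95. Without the cell with most counts, Il17f was -0.79, and with Cd163l1 only -3.37. Genes at least 2-fold higher than in αβ T cells numbered 60, and than in other cells with Trdc or Trgc1 26. The share with Cd163l1 alone was 49.2% and 27.6% after thinning to 1000 counts, and 59.7% and 55.7% without thinning. With at least 2 counts of the defining gene, Il17a with Cd163l1 only was -1.98 and Il17f -2.06. The causes of these moves were not tested.

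Il17a in all members was below 0 under every alternative run. For the main results, among them the member shares and the ratios of Il17a, Il17f, Il22, Il23r and Cxcr6, the first set of alternative settings moved 38 values. It changed the direction of 1 and left 83 unmoved, and the settings added after the values were seen moved 14 and left 35. For single other genes, the first set moved 237 values, changed the direction of 20 and left 2583 within their intervals, and the added settings moved 24, changed 3 and left 678. No paired analysis was possible because each group held 1 library. A comparison with Trgv5-positive cells could not be run, with 2 and 1 such cells. The combination library held only 106 members and 156652 counts, and intervals leave out variation between animals.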
